A study of Solanum lycopersicum with 86 samples.

Results

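The genes described here are 108 of the 23050 genes in an expression table of tomato stems (Solanum lycopersicum). They were chosen by their measured values in internodes of the cultivars Moneymaker and M82, where their level was lower under added far-red light. On a log2(value + 1) scale, a member had a mean over all libraries of at least 1. In each cultivar its difference between far-red and white light, averaged over the internode times, was at most -0.7. Of 18429 genes with that mean, 314 passed the limit in Moneymaker, 288 in M82 and 118 in both. A set of 11 genes was left out by identifier. Of these, 10 stood in the table and all 10 met the rule, which leaves the 108, and 1 was not analysed here. Apart from the mean over all libraries, the values of internodes therefore chose the members. Only differences between lights in pith, between tissues, between clock times and between cultivars can be tested on them.

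Plants sense neighbours by comparing red with far-red light, because leaves absorb the red and pass or reflect the far-red. The receptors are the phytochromes, which red light turns into an active form and far-red light turns back. When active phytochrome falls, growth-promoting transcription factors of the PIF family accumulate, and stems elongate in the response known as shade avoidance. Transcripts of some genes rise in this response and those of others fall. The table names its genes only by Solyc identifier, and none of the identifiers was found in the reference gene table used here (0 matches), so no gene name, function or sequence is given. The digits after Solyc give the chromosome.

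All plants were wild type. White light (WL) had 200 PAR of photosynthetically active radiation in days of 16 h light and 8 h dark. The far-red groups (FR) had the same white light with far-red light added to a red to far-red ratio of 0.21. RNA came from the whole first internode, the stem piece above the cotyledons, after 6, 24, 30 and 48 h of treatment, and from the pith, the tissue at its centre, after 30 and 48 h. Whole internodes also hold pith. Moneymaker gave 19 FR and 13 WL internode libraries and 8 FR and 6 WL pith libraries, and M82 gave 11 and 15 from internodes and 5 and 9 from pith. Each of the 24 groups had between 2 and 6 libraries. The labels call these biological replicates and tie the replicate number to a batch of plants.

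The 86 libraries held 0.769 to 22.1 M reads (median 2.98 M). With sets of 20 genes per side that are not members, picked in these same libraries, 12 libraries went against a label. In 9 the genes that differ between the cultivars were closer to the other cultivar (6 labelled M82, 3 labelled Moneymaker). In 3, all labelled WL 48 h, the genes that differ with clock time lay on the side of 6 and 30 h or at the midpoint. Of the 12, 7 were from internodes and 5 from pith, and the counts below are also given without them. All of the 12 but Moneymaker FR 48 h pith replicate 3 were labelled WL, so in M82 they lay on the WL side only. Of the 6 labelled M82 above, all but WL 6 h internode replicate 5 were WL replicate 1, from internodes and pith. A part of these labels in the light differences was not tested. A further pattern concerned light. The library labelled M82 WL 30 h internode replicate 1, one of the 12, had a members' mean of 3.43 where its 4 companions had 4.52 to 5.00 (log2 of value + 1). The library labelled M82 FR 24 h internode replicate 3 had 4.28, closer to the 2 WL libraries at that time (4.77 and 4.79) than to its companion (3.42). Without the first of these the rule gave 112 members, all 108 among them. Without the second it gave 113, of which 99 were shared.

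In whole internodes the members as a group were lower under FR at every time, which is how they were chosen and is not a finding. The median member difference in Moneymaker was -1.03 at 6 h, -1.24 at 24 h, -1.26 at 30 h and -0.68 at 48 h. In M82 it was -0.94, -0.90, -1.28 and -0.99 at the same times. The rule fixes the mean over the times but not the course, and the course varied among members. In Moneymaker 39 members had their lowest difference at 30 h, 35 at 24 h, 27 at 6 h and 7 at 48 h. In M82, 51 had it at 30 h, 20 at 6 h, 19 at 48 h and 18 at 24 h. Differences were below 0 at all 4 times for 96 members in Moneymaker and 85 in M82, and in all 8 comparisons for 76. Only 10 members were at or below -0.7 in all 8. The M82 values include the libraries FR 24 h replicate 3 and WL 30 h replicate 1, whose members' means lay near the other light. With M82 FR 24 h held by 2 libraries, how far noise sets the course was not tested. In the fit across all genes 61 members were called lower in Moneymaker internodes, where 0.857% of 19029 genes were, and 38 in M82 internodes, where 0.42% were; the rule used these contrasts, so nothing is read from the counts.

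**Figure D1:**
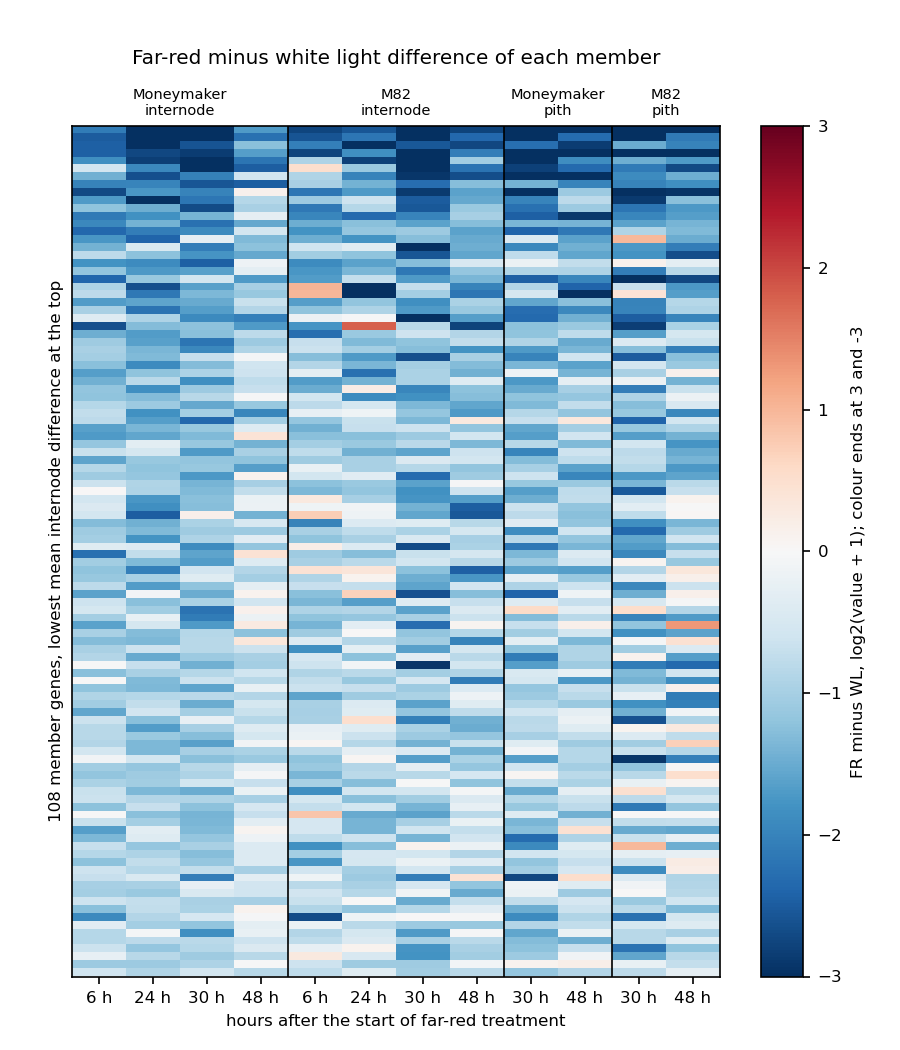
Difference between FR and WL of each member, one row per gene, on the log2(value + 1) scale, with columns for time, tissue and cultivar. Rows run from the lowest mean internode difference at the top, and blue stands for lower under FR. Blue fills most of the pith columns, whose differences the choice of members did not use.

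The members nearest the limit show how finely it cuts. Just inside were Solyc08g066890 (-0.70 in Moneymaker, -1.12 in M82), Solyc04g007990 (-0.70 and -0.87) and Solyc01g091320 (-0.89 and -0.70). Just outside were Solyc10g079700 (-0.95 and -0.70), Solyc10g055560 (-0.97 and -0.69) and Solyc11g042890 (-0.70 and -0.69). Members were on the whole moderately expressed. Their mean level had a median of 3.55 on the log2(value + 1) scale, against 4.28 for all genes tested, and ran from 1.34 (Solyc06g062540) to 10.12 (Solyc07g064160). All 108 passed the filter of the test, a mean value of at least 1, and 51 had a read in every library.

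The 6 members with the lowest mean internode difference over the cultivars were Solyc09g082660, Solyc04g050625, Solyc04g078140, Solyc03g025190, Solyc12g008800 and Solyc03g098010. Solyc09g082660 stood at the top with mean differences of -2.81 in Moneymaker and -3.44 in M82. In Moneymaker its 19 FR internode libraries ran from 11.95 to 181 with a median of 66.5 on the deposited scale (read counts that the authors scaled per library), and its 13 WL libraries from 225 to 576 with a median of 456. The groups did not overlap, and no other member was separated in this way in Moneymaker internodes (1 of 108, against 0.0263% of genes tested). In M82 its FR internode libraries ran from 0 to 516 (median 35.0, n = 11) and its WL libraries from 15.0 to 646 (median 438, n = 15). The 516 was the library labelled FR 24 h replicate 3 and the 15.0 the library labelled WL 30 h replicate 1, both described above. In M82 internodes no member had all FR below all WL libraries (0 of 108, against 0% of genes tested). The rule used the internode values, so nothing is read from these counts in either cultivar.

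Solyc03g098010 was the member of these 6 whose difference depended most on the time. In Moneymaker it went from -0.55 at 6 h to -1.94 at 24 h, -4.32 at 30 h and -2.47 at 48 h. In M82 it was 0.49 at 6 h, -1.12 at 24 h, -4.67 at 30 h and -2.22 at 48 h. By contrast Solyc04g050625 lay between -2.23 and -3.94 at all 4 times in Moneymaker and between -2.17 and -3.16 in M82. Solyc03g025190 lay between -1.66 and -2.84 in Moneymaker and between -1.84 and -3.01 in M82.

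Pith libraries entered the choice of members only through the mean over all libraries, and not through the far-red difference. Pith and internode libraries of a cultivar and light share replicate numbers, and so batches of plants. The pith difference is therefore not fully independent of the internode difference, and the part of shared batches was not tested. In pith the members were again lower under FR. In Moneymaker pith, averaged over 30 and 48 h, 24 of 108 members (22.2%) were called lower and 0 higher. Among all genes tested 0.321% were called lower and 0.184% higher. In M82 pith 39 members (36.1%) were called lower and 0 higher, against 1.43% lower and 2.28% higher of all genes. The median member difference was -1.05 in Moneymaker pith and -1.08 in M82 pith, and the median of all genes was -0.04 and 0.01. Differences are fitted on log2(value + 1), which understates the change of low genes, and are given ± SE. A call is an adjusted p below 0.05 from limma with Benjamini-Hochberg adjustment over 19029 genes, with 8 FR against 6 WL libraries in Moneymaker and 5 against 9 in M82. In bulk tissue a smaller number of cells of one type and less RNA per cell cannot be told apart. With the 12 label-contradicting libraries removed, 28 members were called in Moneymaker pith (22 of them shared), with 0.589% of all genes called in either direction. In M82 pith 28 were called (25 shared), with 0.883% of all genes.

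The direction went beyond the members called, and no member was called higher in either pith by limma, edgeR or DESeq2, nor was any higher at an unadjusted p below 0.05 in limma (0 in each). In Moneymaker pith 106 of 108 members (98.1%) had a difference below 0, as did 55% of all genes tested, and 77 (71.3%) were lower at an unadjusted p below 0.05, as were 5.06% of all genes. In M82 pith 105 (97.2%) were below 0 against 49% of all genes, and 65 (60.2%) were lower at an unadjusted p below 0.05 against 9.38%. In both cultivars together 103 members (95.4%) were below 0 against 32.6% of all genes, and 62 (57.4%) were at or below -0.7 against 2.24%. At single times fewer members were called. Moneymaker pith had 9 members called lower at 30 h (0.142% of genes) and 4 at 48 h (0.0368%), and M82 pith had 7 at 30 h (0.168%) and 13 at 48 h (0.378%). The mean level of the members separated the lights in pith without a test: 2.99 to 3.85 under FR and 4.46 to 4.89 under WL in Moneymaker, and 2.71 to 3.51 against 3.76 to 4.98 in M82. The M82 pith library at 3.76 was WL 48 h replicate 6, one of the 12.

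**Figure D2:**
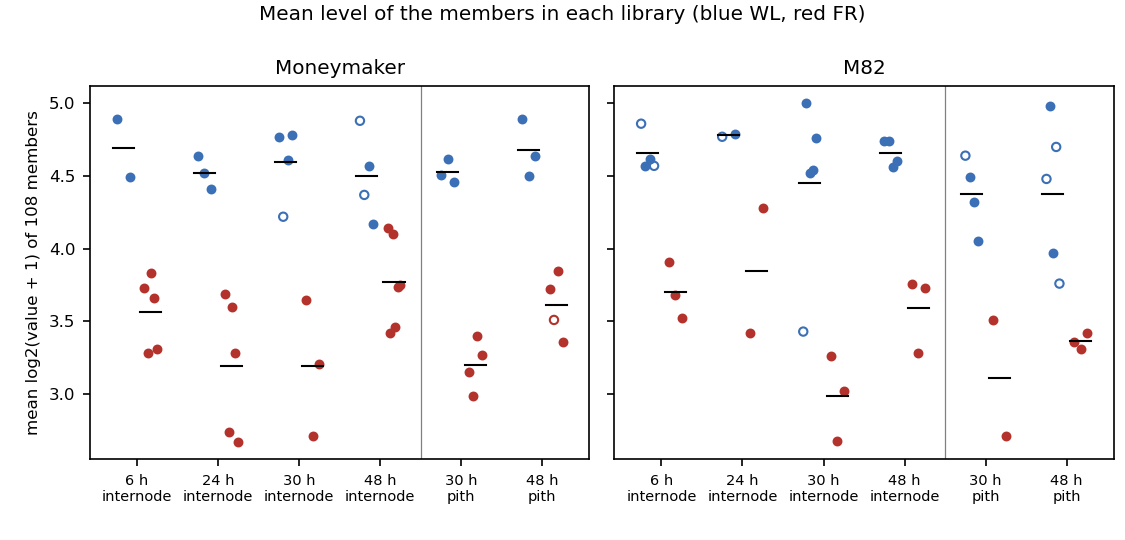
Mean log2(value + 1) of the 108 members in each library, by cultivar, tissue and time. Blue points are WL and red points FR libraries, black bars are group means, and empty circles are the 12 libraries whose marker genes contradict their cultivar or clock label. In both piths all FR points lie below all WL points. In internodes the library labelled M82 WL 30 h replicate 1 (3.43) lies among the FR points.

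The M82 count rests on few libraries, as does the count over all genes, of which 3.71% were called in either direction. Leaving out the library M82 FR 30 h pith replicate 3 left 11 members called lower and 0.468% of all genes called, and leaving out M82 FR 48 h pith replicate 4 left 22 members and 0.615% of all genes. A fit with only the M82 pith groups, which estimates the spread from 14 libraries alone, called 13 members and 0.389% of all genes. In Moneymaker the count fell to 14 members without WL 48 h pith replicate 4, and the share of all genes went from 0.504% to 0.31%.

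Of the members, 16 were called lower in both piths, 8 in Moneymaker pith alone, 23 in M82 pith alone and 61 in neither. The 16 are 66.7% of the Moneymaker calls and 41.0% of the M82 calls. Of all genes, 0.321% were called lower in Moneymaker pith and 1.43% in M82 pith. The share called lower in both was not computed, here or under the alternatives. Counts of members called in both piths are therefore a description, and whether this overlap is particular to the members was not tested. A call in one cultivar and not in the other is not a difference between them. Tested directly, the FR difference in pith was not called different between Moneymaker and M82 for any member in limma (0 of 108, 0% of all genes). At an unadjusted p below 0.05 in limma there were 6 of 108 members and 1412 of 19029 genes. The calls were 0 members in edgeR and in DESeq2. The median standard error of this difference between cultivars was 0.623 on the log2 scale. A call needs a difference several times its standard error, so sizeable differences between the cultivars could go uncalled here.

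The 16 members called in both piths had a median internode difference of -1.51 in Moneymaker and -1.45 in M82, and the 61 called in neither had -0.92 and -0.87. The members were chosen on these internode values, so this is a description with no test. Over the 108 members the internode and pith differences had a Pearson correlation of 0.75 in Moneymaker and 0.65 in M82, given as a description across genes that share libraries within a light group. The pith difference was lower than the internode difference for 60 members in Moneymaker and 56 in M82. Pith differences are means over 30 and 48 h and internode differences means over 6, 24, 30 and 48 h. Neither this count nor the correlation therefore compares tissues alone.

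**Figure D3:**
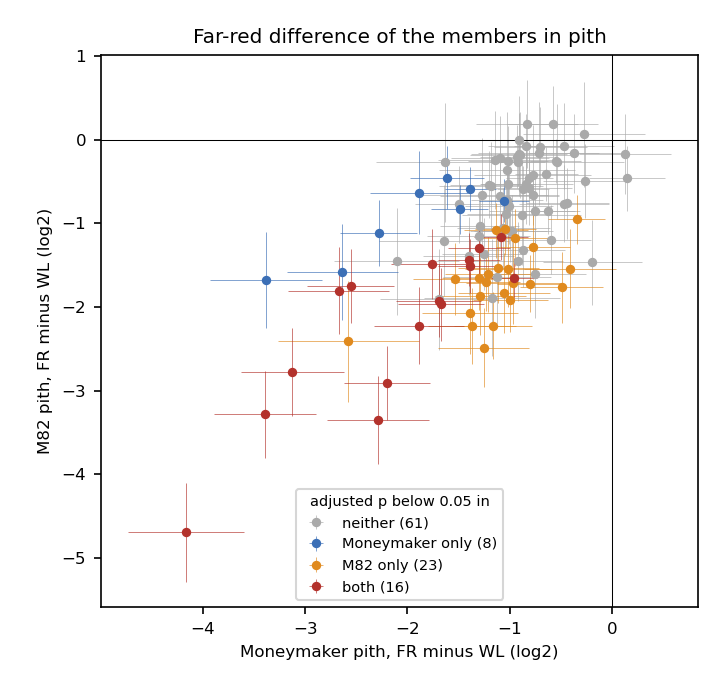
Difference between FR and WL in pith of each member, Moneymaker on the horizontal and M82 on the vertical axis, in log2(value + 1) with bars of 1 standard error. Colours mark whether the member was called at an adjusted p below 0.05 in neither cultivar (61), Moneymaker only (8), M82 only (23) or both (16). Most members lie below 0 on both axes, with Solyc09g082660 farthest from 0.

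Solyc09g082660 had the largest fall in both piths. In Moneymaker its FR 30 h libraries were at 15.9, 34.5, 1.49 and 8.18 and its FR 48 h libraries at 28.9, 42.9, 11.4 and 52.2, while WL 30 h gave 259.6, 454 and 184 and WL 48 h gave 398, 314 and 436. In M82 the FR libraries held 1.51 and 5.85 at 30 h and 2.12, 4.35 and 19.1 at 48 h. The M82 WL libraries held 204, 28.4, 165 and 63.2 at 30 h and 323, 366, 249.9, 231 and 66.4 at 48 h. Every FR library lay below every WL library in both cultivars. The lowest WL values in M82 were 28.4 at 30 h and 66.4 at 48 h, and the latter came from replicate 6, one of the 12 libraries. The log2 difference was -4.17 ± 0.57 in Moneymaker (adjusted p = 1.622e-06) and -4.69 ± 0.59 in M82 (adjusted p = 2.716e-07). Without the 12 libraries the differences were -4.25 and -4.74.

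Solyc03g025190 was nearly as well separated. In Moneymaker pith its FR libraries held 1.56, 5.31, 1.79 and 2.18 at 30 h and 6.43, 12.3, 1.06 and 10.7 at 48 h, and its WL libraries 30.1, 54.8 and 28.9 at 30 h and 51.5, 84.0 and 80.1 at 48 h. In M82 FR libraries held 1.51 and 3.07 at 30 h and 2.53, 1.78 and 4.595 at 48 h. M82 WL libraries held 69.2, 5.76, 44.0 and 27.1 at 30 h and 71.1, 58.4, 109.7, 44.6 and 4.54 at 48 h. The lights did not overlap in Moneymaker. In M82 they overlapped only through the WL 48 h replicate 6 at 4.54, again one of the 12. The log2 difference was -3.39 ± 0.50 in Moneymaker (adjusted p = 9.36e-06) and -3.28 ± 0.52 in M82 (adjusted p = 3.087e-05, or 0.0583 with only the groups compared).

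Solyc04g050625 differed between lights against a level that itself changed with time. Moneymaker WL pith held 27.8, 76.5 and 41.6 at 30 h and 5.01, 4.31 and 14.4 at 48 h, and FR pith 1.88, 1.33, 1.20 and 4.37 at 30 h and 0.18, 0, 1.06 and 1.62 at 48 h. M82 WL pith held 55.8, 25.9, 22.4 and 11.2 at 30 h and 10.6, 7.30, 0.70, 9.98 and 6.36 at 48 h. M82 FR pith held 3.52 and 0.28 at 30 h and 0, 0.40 and 1.53 at 48 h. Within each time the Moneymaker lights did not overlap, and in M82 they did at 48 h only, through the WL library at 0.70. The differences were -3.13 ± 0.50 (adjusted p = 4.164e-05) and -2.77 ± 0.53 (adjusted p = 0.0006524). Without M82 FR 30 h pith replicate 3 the M82 adjusted p was 0.0579.

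Solyc10g076820 was a low gene that nearly vanished under FR in pith. In M82 both FR 30 h libraries were at 0 and the FR 48 h libraries at 0.81, 0.40 and 0, while WL libraries held 3.53, 13.3, 4.20 and 13.8 at 30 h and 3.03, 13.9, 7.01, 7.34 and 14.5 at 48 h. In Moneymaker FR libraries held 0.62, 0, 1.20 and 0 at 30 h and 2.38, 2.45, 1.06 and 0 at 48 h, and WL libraries 8.38, 14.5 and 1.89 at 30 h and 11.4, 5.75 and 6.60 at 48 h. Lights did not overlap in M82, and in Moneymaker 1 WL library at 1.89 lay inside the FR range. The differences were -2.20 ± 0.42 (adjusted p = 0.000966) and -2.91 ± 0.44 (adjusted p = 7.024e-06). A count of 0 in these FR pith libraries allows up to 3 reads, which is 0.264 to 3.98 on the deposited scale depending on depth and covers counting error only. Besides Solyc10g076820, Solyc02g065060 and Solyc12g088300, named after their values were seen, also had 0 in both M82 FR 30 h pith libraries, and no member was at 0 in all FR pith libraries of another group.

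The other members with the smallest adjusted p in both piths were Solyc10g086240, Solyc11g072310, Solyc02g071700 and Solyc04g078140. Solyc11g072310 ran from 0 to 2.01 (median 1.82) under FR and from 9.46 to 30.3 (median 21.7) under WL in M82 pith, with no overlap. In Moneymaker pith it ran from 0 to 11.8 (median 3.83) under FR and from 6.63 to 28.6 (median 19.6) under WL, with overlap, and 3 of 4 FR 30 h libraries were at 0. Its differences were -2.29 ± 0.50 in Moneymaker (adjusted p = 0.008098) and -3.35 ± 0.53 in M82 (adjusted p = 1.459e-05), and the Moneymaker adjusted p was 0.1648 with the replicate number as a block and 0.05166 without WL 48 h replicate 2. Solyc04g078140 had no overlap in Moneymaker pith, where FR ran from 22.5 to 54.8 and WL from 108 to 404, and a difference of -2.56 ± 0.42 (adjusted p = 7.728e-05). In M82 pith its lights overlapped (14.5 to 55.1 against 28.2 to 385), and the difference of -1.75 ± 0.44 had an adjusted p of 0.0179, or 0.1689 without FR 30 h replicate 3, 0.05058 without WL 30 h replicate 1 and 0.1649 with only the groups compared.

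Solyc10g086240 and Solyc02g071700 changed less but in an even way. Solyc10g086240 fell by a similar amount in both cultivars, with differences of -1.40 ± 0.30 in Moneymaker (adjusted p = 0.007114) and -1.44 ± 0.32 in M82 (adjusted p = 0.006075). Its Moneymaker pith libraries ran from 18.6 to 91.8 under FR and 52.0 to 210.0 under WL. Within a time the Moneymaker lights did not overlap, since FR ran from 18.6 to 35.8 at 30 h and 57.8 to 91.8 at 48 h, and WL from 52.0 to 80.3 and from 149.6 to 210.0. Solyc02g071700 had differences of -1.39 ± 0.31 (adjusted p = 0.01074) and -1.504 ± 0.32 (adjusted p = 0.004452). Both lost the M82 call without FR 30 h pith replicate 3, with adjusted p of 0.05114 for Solyc10g086240 and 0.07753 for Solyc02g071700, and with only the groups compared (0.06925 and 0.06656). The Moneymaker adjusted p of Solyc02g071700 was 0.05227 without WL 48 h pith replicate 2.

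**Figure D4:**
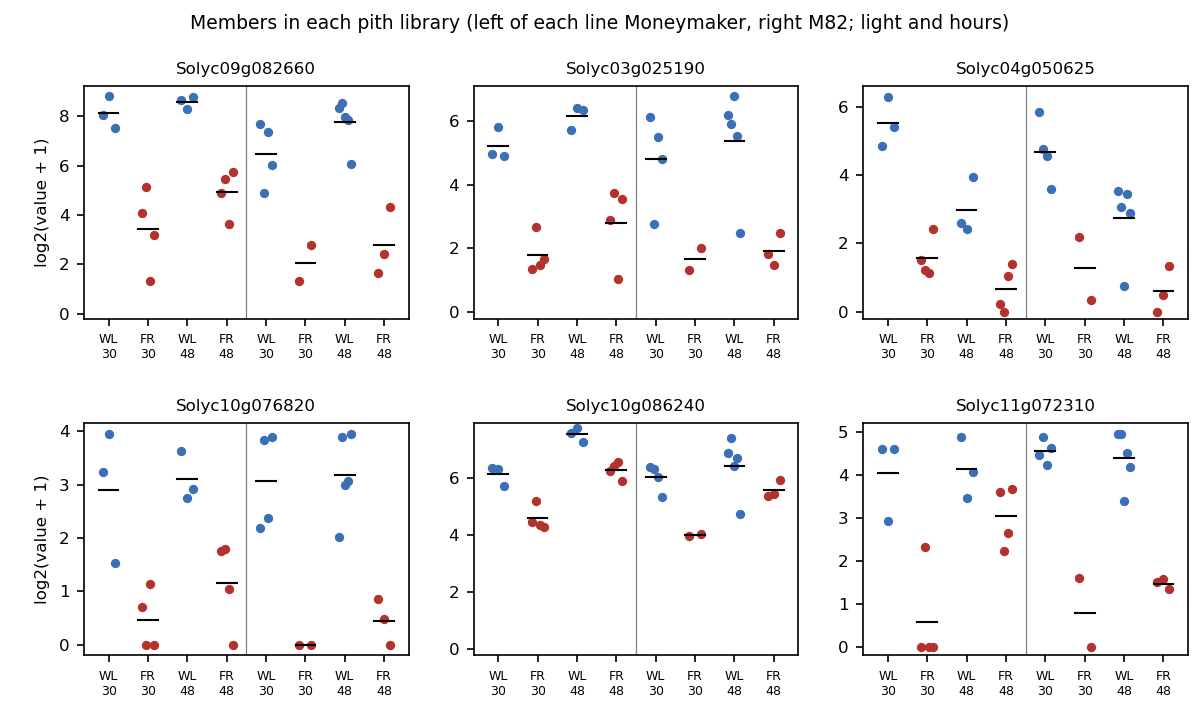
Level of 6 members in each pith library, as log2(value + 1), by light and hours, with Moneymaker left and M82 right of the line in each panel. Blue points are WL and red points FR libraries, and black bars are group means. For Solyc09g082660 all FR points lie below all WL points within each cultivar.

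The remaining members called in both piths, listed here after their values were seen, were Solyc03g031730, Solyc02g065060, Solyc10g086250, Solyc03g093140, Solyc02g089620, Solyc01g111350, Solyc08g060920 and Solyc06g075510. Their differences ran from -2.67 (Solyc10g086250) to -0.96 (Solyc06g075510) in Moneymaker and from -2.22 (Solyc03g093140) to -1.16 (Solyc02g089620) in M82. Solyc06g075510 had the smallest fall of these in Moneymaker but a small adjusted p in M82 (-1.65 ± 0.24, adjusted p = 2.586e-06). Of the 16, Solyc09g082660 and Solyc10g076820 were called in both piths under every alternative, each left-out library included. Leaving out libraries aside, Solyc04g050625 and Solyc06g075510 were too. Without the 12 libraries 14 members were called in both piths, 12 of them among the 16, and the 8 described above were all still called.

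Every FR pith library lay below every WL pith library for 8 members in Moneymaker (0.2% of genes tested) and for 8 in M82 (0.431%). The members in these lists that are not described above are named after their values were seen. In Moneymaker the separated members were Solyc09g082660, Solyc04g078140 and Solyc03g025190 with Solyc12g049250, Solyc11g021060, Solyc07g006600, Solyc10g009380 and Solyc10g080690. In M82 they were Solyc09g082660, Solyc11g072310 and Solyc10g076820 with Solyc03g031730, Solyc03g093140, Solyc06g035710, Solyc08g066670 and Solyc06g075440. Solyc09g082660 was the one shared by the lists. The separated members spanned low and high levels. Solyc12g049250 ran from 0 to 3.70 under FR and 4.89 to 31.8 under WL in Moneymaker pith, and Solyc07g006600 from 70.4 to 154 and from 161 to 240.0.

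Of the 6 members with the lowest internode differences, 4 are described above, and Solyc12g008800 and Solyc03g098010 were not called in both piths. Solyc12g008800 ran from 1.88 to 42.3 under FR and from 28.2 to 151 under WL in Moneymaker pith, with a difference of -2.64 ± 0.54 (adjusted p = 0.003678). Its Moneymaker lights did not overlap at 30 h (1.88 to 6.63 against 28.2 to 57.9) nor at 48 h (7.42 to 42.3 against 65.0 to 151). In M82 pith its difference was -1.58 ± 0.57 (adjusted p = 0.09528). It was called there with the replicate block (adjusted p = 0.04712), edgeR (0.04255) and DESeq2 (0.01192), and without WL 48 h replicate 6, where it was at 2.73 (0.04375). Solyc03g098010 had similar differences in both cultivars that fell on opposite sides of the threshold, -2.58 ± 0.69 in Moneymaker (adjusted p = 0.06588) and -2.41 ± 0.72 in M82 (adjusted p = 0.04481). The M82 call was lost under 14 of the alternatives, leaving out single libraries included, and the Moneymaker value was called under 5.

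At the other end, the members with the highest pith differences showed no detectable fall there. Solyc03g095780 had a difference of 0.13 ± 0.45 in Moneymaker pith and -0.17 ± 0.47 in M82 pith. Solyc09g084460 had -0.27 ± 0.59 and 0.06 ± 0.62, and Solyc12g099810 had 0.14 ± 0.37 and -0.46 ± 0.39. Their adjusted p ran from 0.5077 for Solyc12g099810 in M82 to 0.9797 for Solyc03g095780 in Moneymaker. An adjusted p above the threshold does not show that these members were unchanged. Their internode differences were below 0 at 6, 24 and 30 h in both cultivars and near 0 at 48 h in Moneymaker, where Solyc03g095780 had 0.13, Solyc09g084460 0.28 and Solyc12g099810 -0.02.

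Many members also changed with the time of day, a comparison that weights both lights and both cultivars equally. The times of 6 and 30 h are 24 h apart, as are 24 and 48 h. In internodes, 25 members (23.1%) were called lower at 6 and 30 h than at 24 and 48 h, where 9.25% of all genes were, and 14 (13%) were called higher, where 7.06% were. Without the 12 libraries the counts were 23 and 15. In pith, which was not used for these calls, 24 of the 25 members (96%) were also lower at 30 h than at 48 h (median difference -1.10), and 14 of 14 were higher (median difference 1.30). Of all genes called in the same way, 97.8% and 96.7% kept their direction in pith. Of the 25 members high at 24 and 48 h, 10 were called lower under FR in Moneymaker pith and 11 in M82 pith. Of the 14 high at 6 and 30 h, 4 and 10 were. Of the 69 members without a clock call, 10 and 18 were. No share of all genes was computed for these counts, and a link between clock time and the far-red difference was not tested.

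The largest time differences among the members belonged to Solyc07g064160 and Solyc06g006080. Solyc07g064160, the member with the highest level, ran from 1186 to 7699 with a median of 3022 over 29 internode libraries at 6 and 30 h, and from 87.0 to 4904 with a median of 299 over 29 at 24 and 48 h. The value of 4904 came from Moneymaker WL 48 h replicate 1, one of the 12 libraries, and the other 3 libraries of that group held 223 to 702. Its log2 difference between the times was 2.93 ± 0.22 (adjusted p = 7.35e-18). Solyc06g006080 ran from 82.3 to 455 (median 205) and from 15.8 to 268 (median 33.3), with a difference of 2.16 ± 0.17 (adjusted p = 1.019e-17). Both were called lower under FR in M82 pith (-1.55 ± 0.45, adjusted p = 0.03871 for Solyc07g064160, and -1.72 ± 0.34, adjusted p = 0.001417 for Solyc06g006080) and not in Moneymaker pith (-1.01 ± 0.43 and -0.80 ± 0.32). The M82 call of Solyc07g064160 was lost with only the groups compared (adjusted p = 0.1197), without FR 30 h pith replicate 3 (0.1881) and without each of 7 other pith libraries (0.05448 to 0.07963). The difference between the cultivars was not called for either.

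In the other direction, Solyc09g065560 and Solyc05g010320 were lower at 6 and 30 h. Solyc09g065560 ran from 13.04 to 102 with a median of 35.8 at 6 and 30 h, and from 34.3 to 179 with a median of 95.6 at 24 and 48 h, a difference of -1.43 ± 0.14 (adjusted p = 9.401e-14). Solyc05g010320 ran from 44.6 to 261 (median 109) and from 86.7 to 569 (median 212), a difference of -1.14 ± 0.14 (adjusted p = 9.686e-10). For both, the ranges at the compared times overlapped. Solyc05g010320 was called lower under FR in Moneymaker pith (-1.49 ± 0.28, adjusted p = 0.000706).

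**Figure D5:**
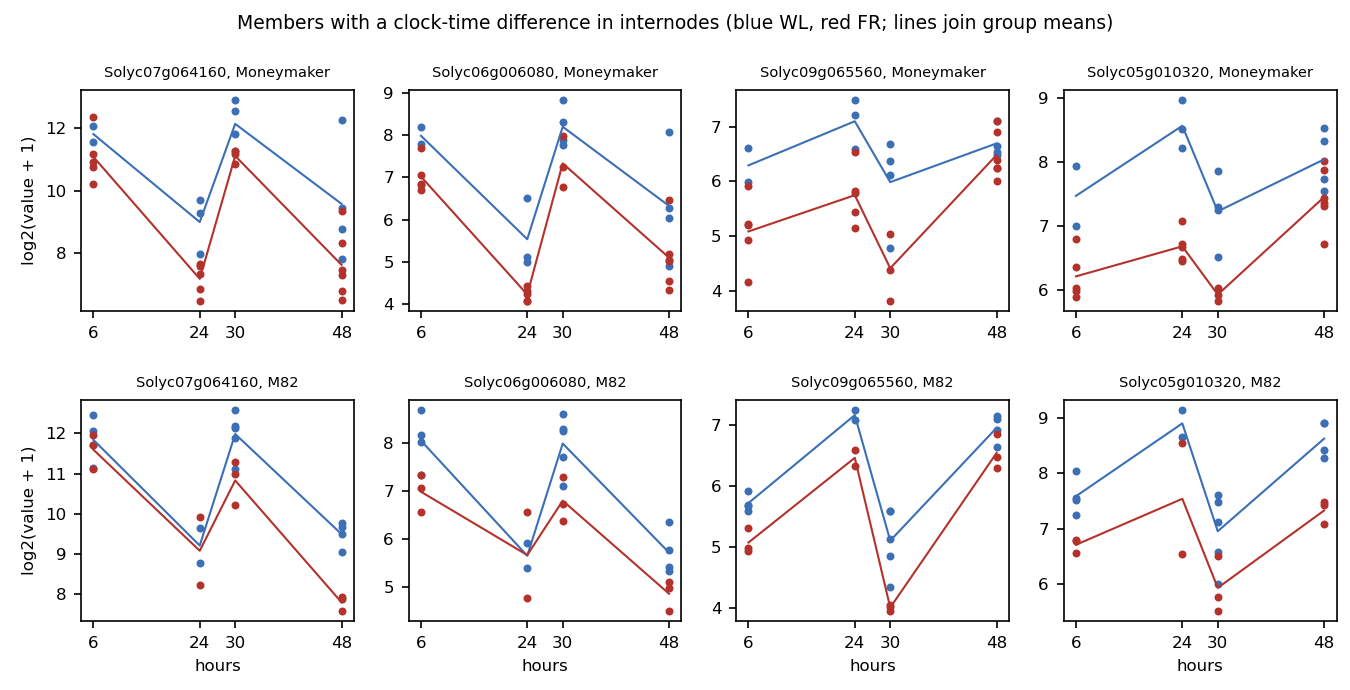
Level of the 2 members with the smallest adjusted p for clock time in internodes in each direction, as log2(value + 1) against hours of treatment, Moneymaker above and M82 below. Blue points are WL and red points FR libraries, and lines join group means. Solyc07g064160 and Solyc06g006080 are high at 6 and 30 h in both lights, and Solyc09g065560 and Solyc05g010320 are high at 24 and 48 h. The single high Moneymaker WL point at 48 h in the first panels is a library that went against its clock label.

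Few members were called different in level between tissues. The Moneymaker counts were too small to be read against the share of all genes. With both lights weighted equally, 1 member (0.926%) was called lower in Moneymaker pith than in internodes at 30 and 48 h, against 0.662% of genes. In the same comparison 2 (1.85%) were called higher, against 0.462%. In M82, 6 (5.56%) were called lower in pith, against 2.46% of genes, and 0 higher, against 0.268%. At an unadjusted p below 0.05 in limma 11 members were higher and 18 lower in M82 pith, and 2084 of 19029 genes passed in either direction. There edgeR called 0 members higher (2.45% of all genes in either direction) and DESeq2 called 2 higher (3.44%). The Moneymaker calls were 1 in all without the 12 libraries, none of them shared, where 0.657% of all genes were called in either direction. They were between 0 and 5 with single libraries left out. The M82 calls were 12 without the 12 libraries, with all 6 among them, where 2.94% of all genes were called in either direction.

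Solyc07g043500 was called lower in pith in both cultivars, and the Moneymaker call was lost under several alternatives. In M82 it ran from 0.28 to 76.4 (median 15.6, n = 14) in pith and from 12.6 to 113 (median 48.3, n = 15) in internodes, with a difference of -1.85 ± 0.32 (adjusted p = 7.385e-05). In Moneymaker the ranges were 1.49 to 50.6 (median 22.0, n = 14) and 20.6 to 112 (median 44.1, n = 17), with a difference of -1.20 ± 0.30 (adjusted p = 0.02663). The adjusted p in Moneymaker was 0.1709 with the replicate number as a block, 0.0521 without the 12 libraries and 0.05077 to 0.0943 without each of 6 single libraries. Solyc05g010320 was lower in M82 pith (-0.95 ± 0.20, adjusted p = 0.001211), with medians of 72.4 in pith and 170.2 in internodes. Solyc05g010060 (0.67 ± 0.17, adjusted p = 0.02976) and Solyc12g096310 (1.15 ± 0.32, adjusted p = 0.04695) were higher in Moneymaker pith, and neither call held without the 12 libraries (adjusted p = 0.1306 for Solyc05g010060 and 0.272 for Solyc12g096310) or with the block (0.1297 and 0.2228).

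Between the cultivars, averaged over lights and internode times, no member was called different in limma, where 0.977% of genes were. At an unadjusted p below 0.05 in limma there were 14 of 108 members, 12 of them lower in Moneymaker, and 1714 of 19029 genes in either direction. edgeR called 2 (1.1% of all genes), DESeq2 called 5 (1.37%), and limma without the 12 libraries called 4 (2.29%), all of these members lower in Moneymaker.

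Over the 24 group means the members followed each other. The correlation of a member with the mean of the other members had a median of 0.74 and ran from 0.20 (Solyc11g072620, named here after its value was seen) to 0.94 (Solyc04g078140), with 63 above 0.7 and 3 below 0.3. Solyc07g064160 (0.21) and Solyc06g006080 (0.28), which vary most with clock time, were the other 2 below 0.3. These values include the light difference that chose the members and are a description.

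Some members have neighbouring identifiers. Solyc10g017970 and Solyc10g017980 had a correlation of 0.87 over the 86 libraries, Solyc10g086240 and Solyc10g086250 0.69, Solyc10g086250 and Solyc10g086270 0.60, and Solyc03g082420 and Solyc03g082430 0.56. If such neighbours are near-identical copies, the counting could have split reads between them, so their single values are uncertain. Solyc10g017970 and Solyc10g017980 shared an unusual course, with M82 internode differences of 1.00 and 1.02 at 6 h. In pith Solyc10g017970 was called lower in Moneymaker (-1.89 ± 0.48, adjusted p = 0.04162), and the call was lost with the replicate number as a block (adjusted p = 0.224), without the 12 libraries (0.1722), with only the groups compared (0.1857), with edgeR (0.07081) and without each of 9 single libraries. By the chromosome digits of the identifier, chromosome 10 held 14 members (12.96% against 6.64% of genes tested) and chromosome 1 held 7 (6.48% against 12.4%), with no test.

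The 10 left-out genes in the table had lower median differences than the members, described here with no test. Their median difference was -2.60 in Moneymaker internodes, -2.78 in M82 internodes, -3.42 in Moneymaker pith and -3.56 in M82 pith. In the pith they ran from -4.60 to -1.89 in Moneymaker and from -4.95 to -1.06 in M82, a range that also holds members such as Solyc09g082660, Solyc03g025190 and Solyc04g050625.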

How the data were processed

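RNA-seq libraries were made from polyA RNA of first internodes and pith with random primers, per the labels' protocols. Per the submitters' processing notes, the tools were STAR, featureCounts, Trim Galore and FastQC, with no version. Genome build, annotation and strand setting were not given in the sources used here. In the deposited table each gene has a signal per library, which is a read count that the authors scaled by a factor for each library. Values were whole multiples of 1 read in every library: of nonzero values below 2000 reads, 100% were whole within 0.02 reads. Groups were taken from sample titles. The treatment field of 19 Moneymaker WL libraries carries the FR tag, against their titles and codes. Lowest replicate pair chi-square per degree of freedom was 1.94, so no replicates agreed within sampling noise. No table column lacked a sample.

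The members, the lists and the tests were chosen with earlier results of these data known. Differences on log2(value + 1) were fitted with limma 3.58.1 (trend, robust; R 4.3.3). A single model of the 86 libraries estimated 24 group means for each of the 19029 genes whose mean value reached 1. P-values were adjusted over all genes by Benjamini-Hochberg. Tissue, clock time and cultivar comparisons weight both lights equally, and their sampling correlation with the internode difference of the rule lay between -0.131 and 0.037. This correlation takes libraries as independent and leaves shared batches of plants aside. The script was tested on simulated data. Genes named are the 6 lowest in internodes, the 8 strongest in both piths, the 3 highest in pith, 3 on each side of the limit, up to 2 per direction for the other comparisons, neighbouring identifiers and the highest and lowest levels. Others are marked.

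Alternatives were a pseudocount of 0.25, no filter, TMM factors, edgeR 4.0.16 and DESeq2 1.42.0 on the recovered reads, only the groups compared, a replicate block, omission of 12 libraries that go against a label, and leaving out each library. Replicate numbers mark a batch of plants in the series design and so pair the lights. The highest numbers of Moneymaker internodes at 48 h carry sample codes with lower numbers. Same-numbered FR and WL libraries had residuals that correlated at 0.05 on average (26 pairs, -0.281 to 0.358, 8 over 0.1) and those with other numbers at -0.009.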

Additional observations from a re-analysis of the deposited data

Results flagged for a closer look

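Within groups of 4 or more, 52 tests looked for 1 library apart from the rest of its group. Some tested the mean of all members. The others tested, in pith only, the members named as lowest in internodes or strongest in both piths. In all, 5 tests found such a library, and chance flags about 1 in 20 where values are continuous. Where all other libraries of a group are at 0, any value above 0 is flagged, as for Solyc11g072310 below. All 5 flags came from tests of a single member, so 5 of 52 understates their share among those tests. All values here are log2(value + 1).

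Solyc12g008800 was at 2.93 in Moneymaker FR 30 h pith replicate 3, where the others of the group had 1.52 to 1.76, and at 3.07 in FR 48 h pith replicate 5, where the others had 5.09 to 5.44. Solyc11g072310 was at 2.32 in the same FR 30 h replicate 3 while the others were at 0. That library was the shallowest of the series, with 0.769 M reads, and 3 reads in it correspond to 3.98 on the deposited scale. In M82 WL 48 h pith, Solyc04g050625 was at 0.77 in replicate 4 against 2.88 to 3.54, and Solyc09g082660 at 6.07 in replicate 6 against 7.86 to 8.52. The latter library went against its clock label. The part of depth or of labels in these values was not tested.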

How the results depend on the processing

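In pith, members called lower numbered 21 to 30 in Moneymaker over the alternatives that kept all its libraries or dropped the 12 against a label, with 21 under the replicate block, and 14 to 25 over single libraries left out. In M82 they numbered 13 with only the groups compared (39 in the full fit), 28 without the 12 libraries, 48 under the replicate block, 40 with edgeR and 56 with DESeq2, and 11 to 43 over left-out libraries; where this left 1 library in a group, it was taken to vary like the other groups. The share of all genes called in either direction moved too. In M82 pith it was 0.389% with only the groups compared, 0.883% without the 12 libraries and 5.12% under the block. There edgeR called 2.83% and DESeq2 5%. In Moneymaker pith it was 0.368% under the block and 0.736% with DESeq2. Members called in both piths numbered 6 with only the groups compared, 18 under the replicate block (12 of the 16) and 25 with DESeq2. The difference between cultivars in pith stayed at 0 members throughout. Tissue calls in Moneymaker (3) were 1 under the replicate block, 1 without the 12 libraries, 5 with edgeR and 7 with DESeq2, and 0 to 5 over left-out libraries. Tissue calls in M82 (6) were 12 under the replicate block, 12 without the 12 libraries and 10 with DESeq2, and 4 to 10 over left-out libraries. Cultivar calls (0) were 4 without the 12 libraries, 1 with only the groups compared, 2 with edgeR and 5 with DESeq2, and 0 to 5 over left-out libraries, with 5 without M82 WL 30 h internode replicate 1. Of all genes, Moneymaker tissue calls were 0.452% under the block, 0.657% without the 12 libraries, 1.28% with edgeR and 2.21% with DESeq2. M82 tissue calls were 3.5% under the block, 2.94% without the 12 libraries and 3.44% with DESeq2. Cultivar calls were 2.29% without the 12 libraries, 1.18% with only the groups compared, 1.1% with edgeR and 1.37% with DESeq2. The cultivar comparison could not be fitted with the block. Clock calls (39) stayed between 36 and 42, with 15.5% of all genes called under the block and 17.9% with DESeq2. The number of members was 179 at a limit of -0.6, 66 at -0.8, 119 without the 12 libraries (83 shared), 156 with a pseudocount of 0.25 and 89 to 127 over left-out libraries.

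Pith differences near 0 changed sign. Without the 12 libraries Solyc03g095780 was 0.27 and Solyc09g084460 -0.67 in M82, and the latter was -0.49 with edgeR and -0.51 with DESeq2. Over left-out libraries Solyc03g095780 ran from -0.13 to 0.34 in Moneymaker and -0.45 to 0.032 in M82, Solyc09g084460 from -0.65 to 0.12 and -0.23 to 0.33, Solyc12g099810 from -0.065 to 0.455 and Solyc04g007990 from -0.51 to 0.068 in Moneymaker, and Solyc01g091320 from -0.53 to 0.102 in M82. Of the other comparisons of named members, setting single libraries aside, 486 kept direction and side of the threshold, 28 gained a call and 34 lost it. The cause was not tested. Depth limits low members most, since 1 read is a large step in shallow libraries.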
